A study of Homo sapiens with 3 samples.

Results

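The actin filament and adhesion cytoskeleton was followed as 50 genes: the cytoplasmic actins, the proteins that nucleate, elongate, cap, sever, bundle and crosslink actin filaments, myosin II with its tropomyosins, focal adhesion proteins, the ERM proteins (ezrin, radixin and moesin) and vimentin. The genes were chosen by name, and each row carrying one of these symbols was taken from the tables, out of 25247 gene symbols in all. All 50 were found. CORO1A shared a row with LOC606724 and TLN1 with MIR6852, so these values belong to the joint rows, and EVL was summed over 2 rows. The cells were OCI-AML2 R50, which carry the name of the established acute myeloid leukaemia line OCI-AML2 and were kept in 50 µM Ara-C (cytarabine, a nucleoside analogue used against the disease) and 15% serum. What R50 stands for is not explained by the labels. There were 2 libraries from cells given romidepsin for 18 h and 1 library from cells labelled as control, and Ara-C was part of the medium of both groups. The treatment field of the control library also names romidepsin, and its group was taken from its own treatment characteristic. Romidepsin is a cyclic peptide that inhibits class I histone deacetylases. The dose is not given in the sources used here, nor is whether the romidepsin libraries came from separate cultures, so each p-value reflects no more than the scatter among these libraries, possibly technical in origin.

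Actin monomers assemble into polar filaments. Profilin and thymosin beta hold the monomer pool, the Arp2/3 complex starts branches, formins and Ena/VASP proteins lengthen filaments, capping proteins and gelsolin stop or cut them, and cofilin takes them apart. Crosslinkers such as fascin, filamin and alpha-actinin shape filaments into bundles and networks, tropomyosins and myosin II make them contractile, and talin, vinculin, zyxin and paxillin tie them to integrins. Blood cells rely on this machinery for migration, spreading and uptake of particles.

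Values are FPKM, fragments scaled to gene length and library size, so levels can be compared between genes. The step between low values corresponds to about 23700000 fragments in each romidepsin library and 20800000 in the control. This makes 1 FPKM about 47.4 and 41.7 fragments per 2 kb of effective length, which the fit put at 175 bases under transcript length. The summed FPKM over all rows was 668773 and 657213 in the romidepsin libraries and 790922 in the control. Over named genes it was 520552 and 517923 in the romidepsin libraries and 613768 in the control. Bringing the sums of named genes to the control's (equal library sums below) moved the median change of all tested genes to 0.16. As deposited it was -0.05, on the log2(FPKM + 1) scale. The myeloid markers LYZ, at 2630 and 2596 FPKM in the romidepsin libraries and 4258 FPKM in the control, and MPO, at 444 and 433 FPKM in the romidepsin libraries and 751 FPKM in the control, were abundant, though both fell. Of the 9 myeloid markers tested, 4 were called lower (LYZ, MPO, SPI1 and CD33) and 5 higher (PTPRC, ITGB2, CSF1R, CD14 and ANPEP, the last of them under 1 FPKM in the control). The 5 epithelial markers summed to at most 0.0764 FPKM in any library, with EPCAM, KRT18 and KRT19 listed at 0 in all 3. The 10 fibroblast and smooth muscle markers summed to 11.8 and 11.2 FPKM in the romidepsin libraries and 1.12 FPKM in the control, with 5 of them past 1 FPKM in both romidepsin libraries and none in the control; COL1A2 and COL3A1 were listed at 0 in every library. Their part in the rises below was not tested.

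Over the whole set, more genes rose than fell in the romidepsin libraries. The 50 genes summed to 19574 and 19293 FPKM in the romidepsin libraries, against 17233 FPKM in the control, or 3.76% and 3.73% of the summed FPKM of named genes, against 2.81%. In the test across 11708 genes (limma, adjusted over all of them), 28 of the 48 genes that passed the filter of 1 FPKM in at least 1 library rose and 13 fell. The same test called 34.7% of all genes higher and 41.8% lower, 76.5% in all. In cultured cells measured in bulk, fewer cells of a type and less RNA per cell cannot be told apart. A further rule, with no test, asked that each romidepsin library differ from the control by at least 2-fold on the log2(FPKM + 1) scale. It was met upward by 9 of the 48, against 7.43% of all tested genes, and downward by 0 of the 48, against 3.08%. The median log2 change was 0.30 over the 48 genes and -0.05 over all genes.

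PFN2 and PXN lay under 1 FPKM in the control and entered the test only through the romidepsin libraries, so their direction was set by the filter. Without them, 26 of 46 (56.5%) were called higher and 13 (28.3%) lower, against 30.5% and 45.2% of the 10838 genes at 1 FPKM or more in the control. The 2-fold rule was met by 7 of the 46 (15.2%), against 4.76% of those genes. VIL1, the villin of intestinal microvilli, stayed under 1 FPKM (0.123 and 0.0677 FPKM in the romidepsin libraries, 0.0485 FPKM in the control). PLS3, a plastin of non-blood tissues, was listed at 0 in all 3 libraries, and neither was tested. With equal library sums 35 were higher and 6 lower, and with no filter on low values 16 and 4.

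**Figure D1:**
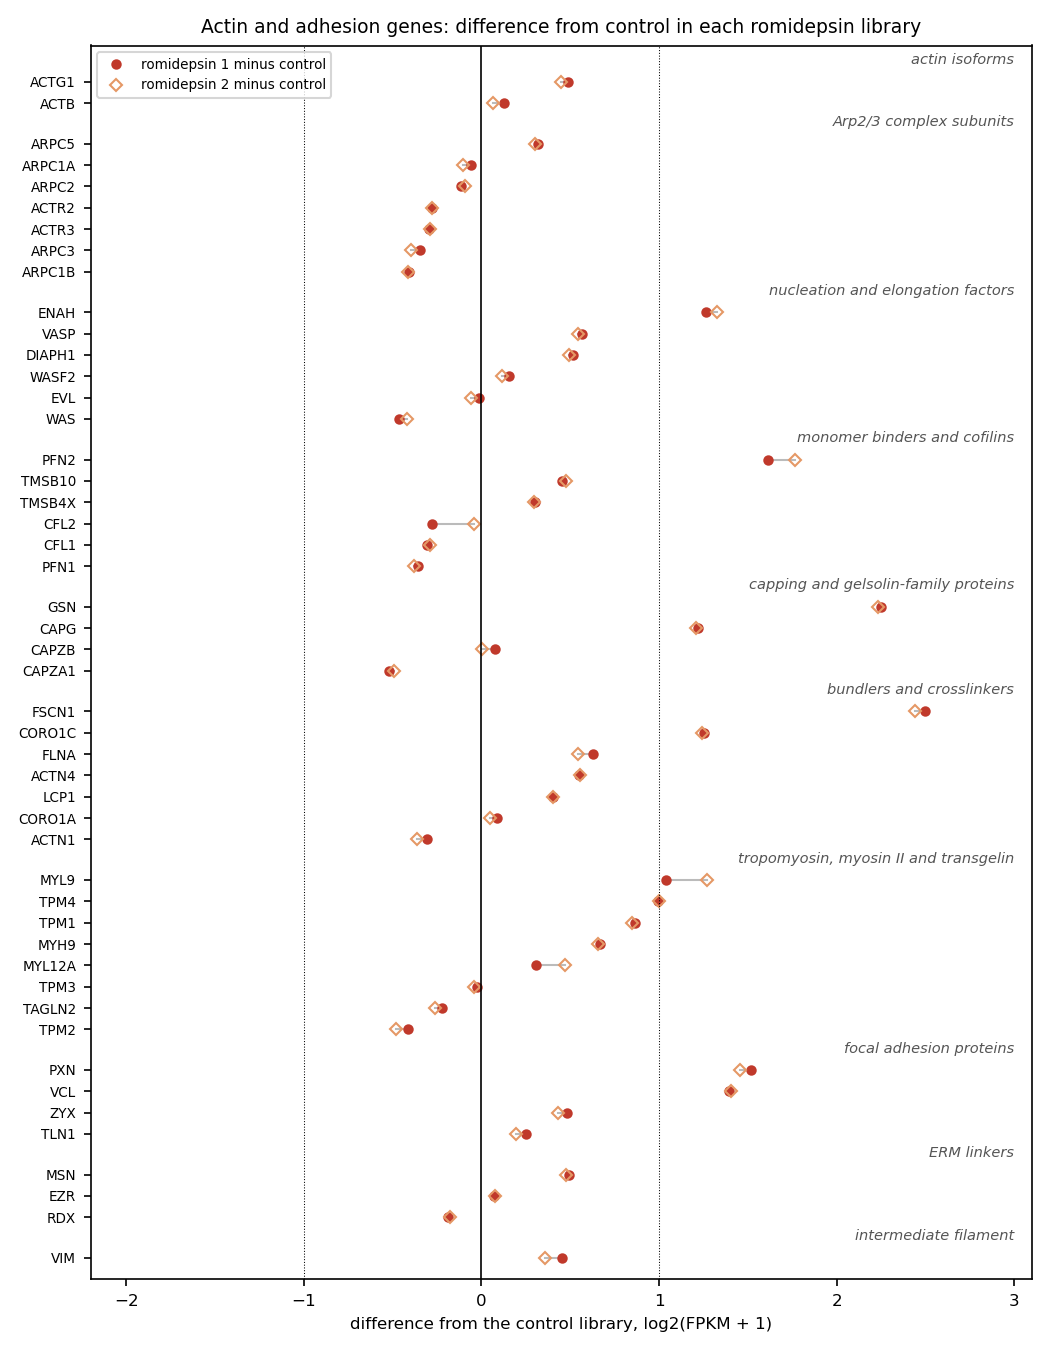
Difference of each romidepsin library from the control on the log2(FPKM + 1) scale for the 48 tested genes, grouped by role; filled circles are romidepsin library 1, open diamonds library 2, and dotted lines mark a 2-fold difference. FSCN1 and GSN lie farthest to the right, no gene reaches the left dotted line, and the 5 Arp2/3 subunits called lower lie left of 0. With equal library sums, ARPC1B and ARPC3 of these 5 are still called lower, ARPC2 is called higher, and ACTR2 and ACTR3 are not called.

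ACTB was the most abundant of the 50 genes in every library, and both cytoplasmic actins passed 1000 FPKM throughout. ACTB, which encodes beta-actin, had 3683 and 3539 FPKM in the romidepsin libraries, against 3378 FPKM in the control. Both romidepsin libraries lay above the control, by little more than they differed from each other: the log2 change was 0.10 ± 0.036 (SE, limma adjusted p = 0.0415), and the pair differed by 0.058. ACTG1, which encodes gamma-actin, had 2512 and 2441 FPKM, against 1792 FPKM in the control (1.38-fold, adjusted p = 1.19e-05). Beta-actin thus held 59.4% and 59.2% of the FPKM of the pair of actins in the romidepsin libraries and 65.3% in the control, a share that does not depend on library scaling. Both actins ranked higher among all genes after romidepsin, ACTB at places 7 and 9 against 18 and ACTG1 at 23 and 24 against 47. Neither call was made without the filter on low values (adjusted p = 0.923 for ACTB and 0.133 for ACTG1).

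These ranks go with a general difference among abundant transcripts. Of the 84 genes at 1000 FPKM or more in the control, 78 were called lower and 5 higher. The 5 were ACTB, ACTG1, TMSB4X and TMSB10 of this set, and B2M, the light chain of MHC class I, which is no member and was named after its values were seen. PFN1, the remaining cytoskeletal gene at that level, fell. With equal library sums, 55 of the 84 were lower and 7 higher, with quantile normalization 39 and 16, and the same number of cytoskeletal genes, 4, was higher in each. Without the filter none of the 84 was called higher and 7 were lower. Among the 982 genes at 100 FPKM or more in the control, 81.6% fell and 11.3% rose (median log2 change -0.39), while of the 24 cytoskeletal genes at that level 12 rose and 9 fell (median 0.08).

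**Figure D2:**
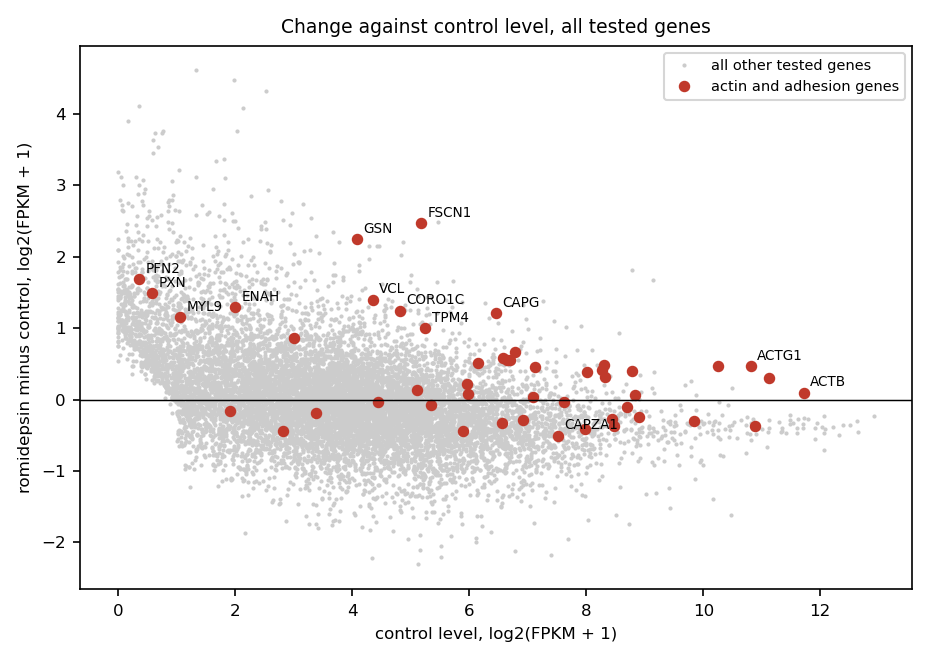
Change after romidepsin (romidepsin minus control, log2(FPKM + 1)) against the control level for all 11708 tested genes in grey and the 48 cytoskeletal genes in red. Most grey points at the right, the abundant genes, lie below 0, and ACTB and ACTG1 lie above them.

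The genes that hold the monomer pool were divided. TMSB4X, which encodes thymosin beta 4, the main actin-sequestering peptide of blood cells, had 2745 and 2739 FPKM in the romidepsin libraries, against 2231 FPKM in the control. TMSB10, its paralogue, had 1666 and 1687 FPKM, against 1215 FPKM in the control. Both rose, by 0.30 and 0.46 on the log2 scale (adjusted p = 7.49e-05 and 8.34e-06). PFN1, the main profilin, which feeds monomers to growing filament ends, fell to 1475 and 1452 FPKM in the romidepsin libraries, against 1886 FPKM in the control (adjusted p = 2.81e-05). It stayed lower, by a smaller step of 0.13, with equal library sums. CFL1, the non-muscle cofilin, fell to 745 and 755 FPKM, against 922 FPKM in the control, but was not called with equal library sums (adjusted p = 0.135) and was 0.078 higher with quantile normalization (adjusted p = 0.0126). PFN2, the profilin best known from the nervous system, had 2.92 and 3.35 FPKM in the romidepsin libraries and 0.280 FPKM in the control, and still made up no more than 0.230% of the profilin FPKM. CFL2, the muscle cofilin, had 2.10 and 2.64 FPKM, against 2.75 FPKM in the control (adjusted p = 0.260). With no filter the calls of all 5 called genes of this group were lost (adjusted p 0.0604 to 0.243).

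Among the 7 Arp2/3 subunits of the set falls outnumbered rises in the deposited values, with 5 lower and 1 higher, against 41.8% and 34.7% of all tested genes. Of all genes at 100 FPKM or more in the control, a level each subunit but ARPC1A reached, 81.6% were called lower. With equal library sums 2 subunits were lower and 3 higher, beside 26.2% and 48.8% of all genes. ARPC1B, the ARPC1 paralogue that dominates in blood cells, had 190 and 189 FPKM in the romidepsin libraries, against 252 FPKM in the control. ARPC3, a small structural subunit, had 279 and 269 FPKM, against 355 FPKM in the control. ACTR2 and ACTR3, the actin-related proteins Arp2 and Arp3 that seed the branch, had 287 and 287 FPKM and 98.1 and 98.5 FPKM in the romidepsin libraries, against 348 and 120 FPKM in the control. For all 4 genes the romidepsin libraries lay below the control by much more than they differed from each other. ARPC2 was lower by 0.10 as deposited (adjusted p = 0.0184), but higher by 0.14 with equal library sums (adjusted p = 0.00813) and by 0.18 with quantile normalization (adjusted p = 0.00232). ARPC5 rose to 398 and 394 FPKM, against 319 FPKM in the control (adjusted p = 6.75e-05), so that subunits of 1 complex moved in opposite directions. ARPC1A had 38.0 and 36.7 FPKM, against 39.6 FPKM in the control (adjusted p = 0.121). With equal library sums ARPC1B and ARPC3 were the subunits still called lower, by 0.17 and 0.13, while ACTR2 and ACTR3 were not called (adjusted p = 0.284 and 0.214). Without the filter the ARPC2 and ARPC3 falls were not called (adjusted p = 0.154 and 0.0795). Outside the set, and counted below with the further filament factors, the joint ARPC4 row was called lower as deposited (adjusted p = 0.0108). ARPC5L and ACTR3B were not called (adjusted p = 0.0882 and 0.934).

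Among the nucleation and elongation factors, ENAH, VASP and DIAPH1, which lengthen filaments, rose. ENAH, an Ena/VASP protein of leading edges and adhesions, rose to 8.63 and 9.05 FPKM in the romidepsin libraries, against 3.01 FPKM in the control (2.94-fold, adjusted p = 3.35e-06). VASP rose to 148 and 145 FPKM, against 99.3 FPKM, and DIAPH1, a formin, to 100.3 and 98.8 FPKM, against 69.8 FPKM in the control. EVL, the third Ena/VASP gene, had 20.6 and 19.9 FPKM, against 20.8 FPKM in the control (adjusted p = 0.524). Ena/VASP transcripts therefore shifted in make-up, with ENAH at 4.88% and 5.20% of the family's FPKM in the romidepsin libraries, against 2.44% in the control, and EVL at 11.7% and 11.4%, against 16.9%. WAS, the blood-specific activator of Arp2/3 that is mutated in Wiskott-Aldrich syndrome, fell to 42.2 and 43.6 FPKM, against 58.7 FPKM in the control (adjusted p = 4.78e-05), a call not made without the filter (adjusted p = 0.0603). WASF2, which encodes the Rac-driven activator WAVE2, had 37.2 and 36.2 FPKM, against 33.3 FPKM in the control (adjusted p = 0.0212), likewise not made without the filter (adjusted p = 0.161).

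Capping and severing genes held some of the clearest differences of the set. GSN, which encodes gelsolin, a calcium-activated protein that cuts filaments and caps their fast-growing ends, had 79.4 and 78.6 FPKM in the romidepsin libraries, against 15.9 FPKM in the control, a 4.96-fold rise (log2 change 2.24 ± 0.04, SE, adjusted p = 5.89e-08). The romidepsin libraries differed by 0.015 on that scale. CAPG, a capping protein of macrophages from the gelsolin family that does not cut filaments, rose to 205 and 203 FPKM, against 87.3 FPKM in the control (2.34-fold, adjusted p = 2.27e-07). The heterodimeric capping protein occupies the same filament end. CAPZA1, an alpha subunit of it, fell to 127 and 130 FPKM, against 183 FPKM in the control (adjusted p = 9.33e-06). CAPZB, its beta subunit, had 143 and 136 FPKM, against 136 FPKM in the control (adjusted p = 0.382). CAPZA2, another alpha subunit outside the set, was also called lower, at 53.3 and 55.4 FPKM, against 63.1 FPKM in the control (adjusted p = 0.00238). The CAPZA1 fall also held with equal library sums (-0.26, adjusted p = 0.000639), where CAPZB was called higher (0.28, adjusted p = 0.000910).

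Bundling and crosslinking genes carried the largest rise of the set. FSCN1, which encodes fascin, the bundler of filopodia and of mature dendritic cell processes, had 203 and 196 FPKM in the romidepsin libraries, against 35.2 FPKM in the control. That is a 5.67-fold rise (log2 change 2.47 ± 0.04, SE, adjusted p = 5.56e-08), the place 74 among the 11708 changes ordered from the highest; GSN was at place 100. CORO1C, a widely expressed coronin that binds filaments at the cell edge, rose to 66.4 and 65.8 FPKM, against 27.3 FPKM in the control (2.42-fold, adjusted p = 3.85e-07). The leukocyte coronin in the joint CORO1A row had 485 and 473 FPKM, against 457 FPKM in the control (adjusted p = 0.0893; higher with equal library sums, adjusted p = 0.000209). CORO1C thus made up 12.0% and 12.2% of their summed FPKM in the romidepsin libraries and 5.64% in the control.

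The alpha-actinins, which crosslink antiparallel filaments, went opposite ways. ACTN4 rose to 150 and 151 FPKM in the romidepsin libraries, against 102 FPKM in the control (adjusted p = 5.56e-06), while ACTN1 had 75.6 and 72.7 FPKM, against 93.7 FPKM in the control (adjusted p = 0.000180). Near parity in the control, with ACTN4 at 52.2% of the pair, contrasted with 66.5% and 67.5% in the romidepsin libraries, and this share does not depend on scaling. The ACTN1 fall itself was not called with equal library sums (adjusted p = 0.0646) or without the filter (adjusted p = 0.0949). FLNA, the filamin that joins filaments into gels and anchors them to integrins, had 146 and 138 FPKM, against 94.1 FPKM in the control, and LCP1, the plastin of leukocytes, had 582 and 581 FPKM, against 440 FPKM. Both rose (1.51-fold and 1.32-fold, adjusted p = 1.46e-05 and 1.59e-05), the FLNA call being lost without the filter (adjusted p = 0.0798).

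**Figure D3:**
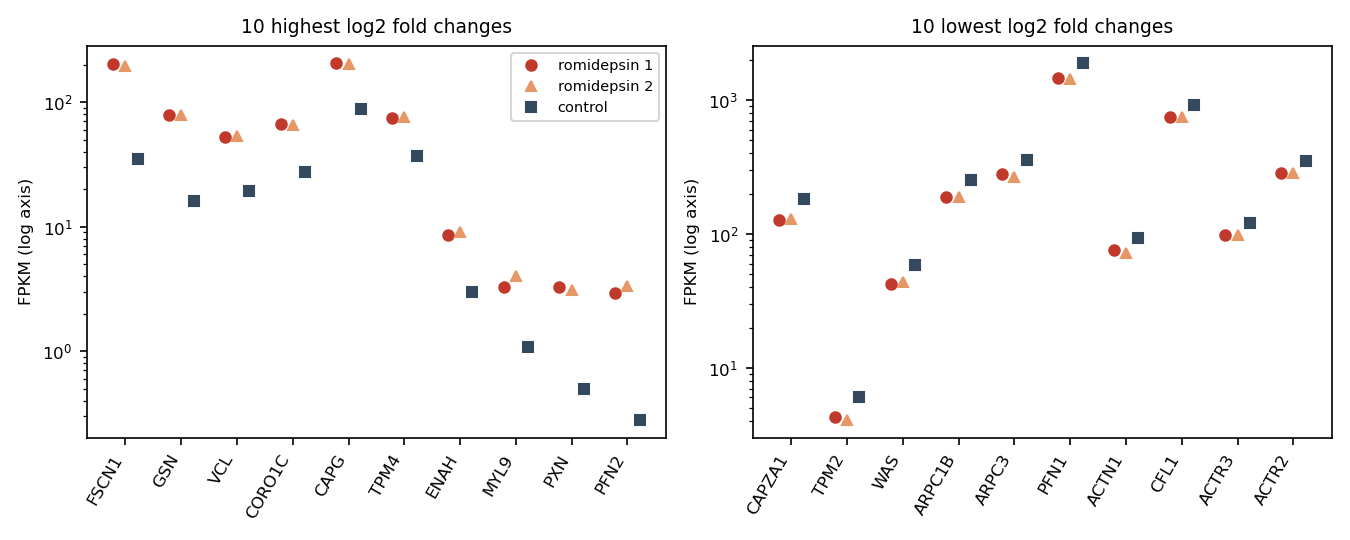
FPKM (log axis) in the 2 romidepsin libraries and the control for the 10 cytoskeletal genes with the highest and the 10 with the lowest log2 change among those that passed the test. The romidepsin points nearly coincide and sit above the control in the left panel and below it in the right one, where the gaps are smaller.

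Tropomyosins, which coat filaments and set which myosins and severing proteins can bind, changed in make-up. TPM4, abundant in platelets and leukocytes, had 74.6 and 75.2 FPKM in the romidepsin libraries, against 37.0 FPKM in the control (2.02-fold, adjusted p = 7.32e-07). On the log2(FPKM + 1) scale this is a change of 0.997, just short of the 2-fold rule, and MYL9, just inside it, changed by 1.16. TPM1 rose to 13.7 and 13.5 FPKM, against 7.07 FPKM, and TPM2, a muscle tropomyosin, fell to 4.31 and 4.08 FPKM, against 6.08 FPKM in the control (adjusted p = 0.00127). TPM3, the most abundant of the 4, had 191 and 189 FPKM, against 195 FPKM in the control (adjusted p = 0.378), but was called higher with equal library sums (0.21, adjusted p = 0.00132) and with quantile normalization. As shares of tropomyosin FPKM, TPM4 held 26.3% and 26.7% in the romidepsin libraries and 15.1% in the control, and TPM3 held 67.4% and 67.1% in the romidepsin libraries and 79.5% in the control. The TPM2 call was lost without the filter (adjusted p = 0.102).

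Myosin II genes rose. MYH9, the heavy chain of non-muscle myosin IIA and the main myosin II of blood cells, had 173 and 171 FPKM in the romidepsin libraries, against 108 FPKM in the control (1.59-fold, adjusted p = 2.35e-06). Its regulatory light chains MYL12A and MYL9 had 321 and 359 FPKM, against 259 FPKM in the control, and 3.29 and 4.03 FPKM, against 1.08 FPKM. These light chains showed the widest gaps within the romidepsin pair among the called genes of the set, 0.16 and 0.23 on the log2 scale, and both calls were lost without the filter (adjusted p = 0.243 and 0.118). TAGLN2, an actin-binding transgelin of blood cells, had 409 and 397 FPKM, against 477 FPKM in the control (adjusted p = 0.000373); the change was near 0 with equal library sums (adjusted p = 0.952) and 0.063 upward with quantile normalization (adjusted p = 0.0448), and no call was made without the filter (adjusted p = 0.102).

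**Figure D4:**
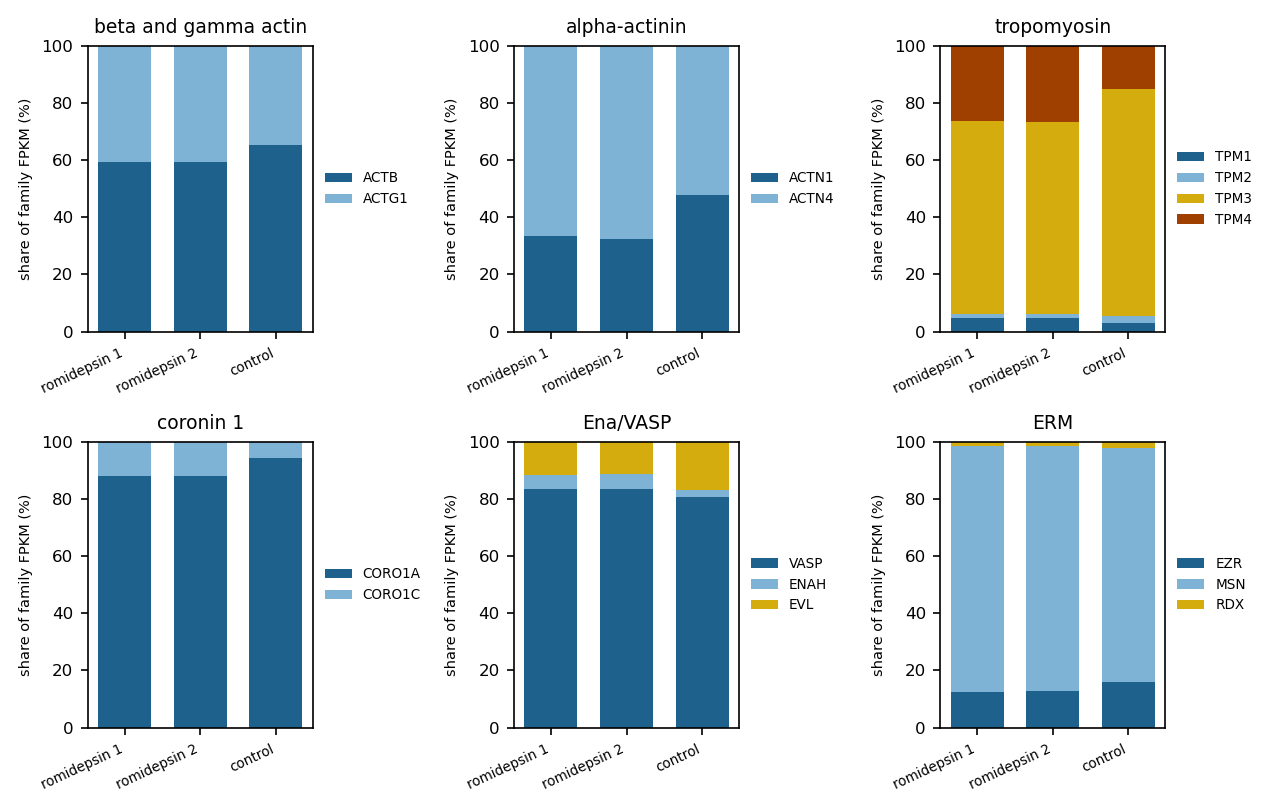
Share of each paralogue in the summed FPKM of its family (%) in the 2 romidepsin libraries and the control, with families limited to genes of the set. CORO1B, at 51.1 and 51.3 FPKM in the romidepsin libraries and 49.4 FPKM in the control, is therefore not part of the coronin 1 shares. ACTN4 and TPM4 hold larger shares in both romidepsin libraries (ACTN4 66.5% and 67.5%, TPM4 26.3% and 26.7%) than in the control (52.2% and 15.1%).

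All 4 focal adhesion genes were called higher, PXN among them through the filter, against 34.7% of all tested genes. VCL, which encodes vinculin, the protein recruited to adhesions under tension, had 52.7 and 53.0 FPKM in the romidepsin libraries, against 19.4 FPKM in the control (2.72-fold, adjusted p = 2.96e-07). ZYX, a LIM-domain protein of mature adhesions and stress fibres, had 194 and 187 FPKM, against 139 FPKM in the control (1.37-fold, adjusted p = 2.14e-05). The joint TLN1 row, which holds talin, the integrin activator that binds vinculin, had 73.4 and 70.5 FPKM, against 61.4 FPKM in the control (adjusted p = 0.00166). PXN, the scaffold paxillin, stood at 3.28 and 3.11 FPKM, against 0.497 FPKM in the control. The ZYX and TLN1 calls were lost without the filter (adjusted p = 0.0642 and 0.142). Adhesion genes therefore ranged from a low-level scaffold to transcripts over 100 FPKM. For VCL, ZYX and the TLN1 row the romidepsin values lay above the control, while for PXN the filter set the direction.

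Of the ERM genes, which link filaments to the plasma membrane, MSN, the moesin that predominates in leukocytes, rose to 444 and 440 FPKM in the romidepsin libraries, against 316 FPKM in the control (1.40-fold, adjusted p = 7.19e-06). EZR had 65.0 and 65.2 FPKM, against 61.8 FPKM (adjusted p = 0.106; higher with equal library sums, adjusted p = 0.000397). RDX had 8.08 and 8.17 FPKM, against 9.36 FPKM in the control (adjusted p = 0.0270), but was 0.034 higher with equal library sums (adjusted p = 0.624) and not called without the filter (adjusted p = 0.0859). VIM, the vimentin intermediate filament of mesenchymal and blood cells, rose to 422 and 395 FPKM, against 308 FPKM in the control (1.33-fold, adjusted p = 9.98e-05), a call not made without the filter (adjusted p = 0.132).

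Of 37 tested further filament factors, 16 were called higher and 8 lower (median log2 change 0.08), with 2 past 2-fold upward. The shares were 43.2% higher and 21.6% lower, against 34.7% and 41.8% of all tested genes. The 2 past 2-fold were CNN2, a calponin, at 94.1 and 92.2 FPKM in the romidepsin libraries, against 37.7 FPKM in the control, and CYFIP2, a subunit of the WAVE complex, at 16.1 and 15.0 FPKM, against 5.999 FPKM in the control. With equal library sums 27 of these factors were higher and 1 lower, beside 48.8% and 26.2% of all genes. With no filter on low values 10 of 41 were higher and 1 lower, beside 8.11% and 8.27% of all genes.

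Of further adhesion adaptors, 13 of 17 tested were called higher and 3 lower (median log2 change 0.46). The shares were 76.5% higher and 17.6% lower, against 34.7% and 41.8% of all tested genes. PTK2 lay under 1 FPKM in the control, so its direction was set by the filter. Without PTK2, 12 of 16 were higher and 3 lower (median 0.37), against 30.5% and 45.2% of all genes at 1 FPKM or more in the control. FHL1, a LIM-only protein, had 32.5 and 29.6 FPKM in the romidepsin libraries, against 7.38 FPKM in the control. SRC, the adhesion kinase, had 11.9 and 11.9 FPKM, against 3.44 FPKM, and LPXN, the leukocyte relative of paxillin, had 104 and 105 FPKM, against 38.0 FPKM in the control. LPXN was thus far more abundant than PXN in every library. TES, a partner of zyxin, had 18.2 and 19.5 FPKM, against 8.18 FPKM, and PTK2, the focal adhesion kinase, had 2.04 and 2.10 FPKM, against 0.0656 FPKM in the control. The 3 that fell, PARVB, PARVG and KANK1, were named after their values were seen; the parvins PARVB and PARVG had 27.2 and 25.03 FPKM and 32.6 and 34.2 FPKM in the romidepsin libraries, against 51.9 and 62.9 FPKM in the control, and KANK1, which restrains filament assembly, had 3.64 and 3.85 FPKM, against 7.51 FPKM. Parvins join integrin-linked kinase (ILK) to actin, and ILK itself rose by 0.67 on the log2 scale. With no filter 8 of the 22 adaptors were higher and 1 lower, beside 8.11% and 8.27% of all genes.

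Serum response factor (SRF) and its actin-regulated cofactor MKL1 drive many cytoskeletal genes through a sequence element called the CArG box. SRF had 27.9 and 28.5 FPKM in the romidepsin libraries, against 38.4 FPKM in the control (adjusted p = 6.56e-05), and MKL1 had 26.0 and 26.8 FPKM, against 31.5 FPKM (adjusted p = 0.00181). These were the 2 called lower in a list of 12 tested SRF-related genes, of which 9 were called higher. The shares were 75% higher and 16.7% lower, against 34.7% and 41.8% of all tested genes. MKL2, another cofactor, was called higher, at 3.57 and 3.64 FPKM, against 1.95 FPKM in the control (adjusted p = 0.000387). So were ELK1, ELK3 and the joint ELK4 row. JUNB was not called, at 81.6 and 82.7 FPKM, against 78.7 FPKM in the control (adjusted p = 0.162). MKL2, the ELK genes and JUNB were named after their values were seen. EGR2 and ACTA2 entered through the romidepsin libraries alone, so the filter set their direction. Without them 7 of 10 were higher and 2 lower, against 30.5% and 45.2% of all genes at 1 FPKM or more in the control. IER2, FOS, EGR1 and EGR2, immediate early genes, were the ones past 2-fold: IER2 had 154 and 148 FPKM, against 58.0 FPKM, FOS 21.4 and 19.4 FPKM, against 4.68 FPKM, EGR1 4.65 and 4.68 FPKM, against 1.17 FPKM, and EGR2 2.23 and 1.51 FPKM, against 0.0811 FPKM in the control. CYR61 and CTGF, targets of the pathway in adherent cells, were listed at 0 in all 3 libraries. With equal library sums 10 of 12 were higher and 1 lower, beside 48.8% and 26.2% of all genes. With no filter 6 of 17 were higher and 1 lower, beside 8.11% and 8.27%. As 1 gene of the list was called lower in each, the falls of SRF and MKL1 did not both hold.

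The CArG box was looked for in the 250 bases before each RefSeq gene start (GRCh38.p14), where 43 of the 50 genes had 74 promoters. ACTB, ARPC1B, FSCN1, MYL9, PFN2, VIL1 and WASF2 had no promoter in the set used and were not searched. The CArG box was found in 4 of the 74 (5.41%), against 1.16% of all 35116 promoters. Its pattern reads the same on both strands. The GC box GGGCGG, on either strand, was in 74.3% of the 74 and 42.6% of all. The 4 stretches with a CArG box are shown to set the element beside genes that moved in both directions: ACTG1, FLNA and TPM4 rose and ACTN1 fell. The ACTN1 fall was not called with equal library sums or without the filter. The ACTG1 and FLNA rises were not called without the filter either. Capitals mark the CArG box, which for ACTN1 and TPM4 lies before one of several annotated starts.
ACTG1, chr17:81512874-81512983, minus strand: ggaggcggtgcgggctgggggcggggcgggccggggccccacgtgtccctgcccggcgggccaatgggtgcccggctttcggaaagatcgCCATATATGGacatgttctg
FLNA, chrX:154374709-154374818, minus strand: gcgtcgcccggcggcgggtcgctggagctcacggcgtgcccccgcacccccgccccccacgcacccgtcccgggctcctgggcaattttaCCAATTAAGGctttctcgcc
TPM4, chr19:16067288-16067384, plus strand: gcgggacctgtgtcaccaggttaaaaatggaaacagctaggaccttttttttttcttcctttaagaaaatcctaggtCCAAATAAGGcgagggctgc
ACTN1, chr14:68977718-68977816, minus strand: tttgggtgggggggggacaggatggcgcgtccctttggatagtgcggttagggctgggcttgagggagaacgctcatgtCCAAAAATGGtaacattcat
The box begins 94 bases before the start in ACTG1 and FLNA, 173 in TPM4 and 171 in ACTN1. A match is a description of the letters, and no binding was measured.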

How the data were processed

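Total RNA from 2 romidepsin libraries and 1 control library was sequenced after a standard Illumina preparation, per the labels' protocols (RNA selection, strandedness and tool versions: not given in the sources used here, labels and file headers alike). The authors deposited 1 table of FPKM values per library, per the file headers. Per the submitters' processing notes, the build was hg19 and the tools included Cufflinks, Cuffdiff and TopHat. The tables hold 28837 rows; 1770 unnamed rows (22.1% and 21.1% of summed FPKM in the romidepsin libraries, 22.3% in the control) and 27 rows named by a number were left out. Rows of a symbol were summed. Genes at 1 FPKM or more in at least 1 library (11708) were compared as log2(FPKM + 1), which understates changes of low genes, with limma 3.58.1 in R 4.3.3 (trend; Benjamini-Hochberg, threshold 0.05). The single residual degree of freedom comes from the romidepsin pair (prior 6.06), and the control library is taken to vary as much as that pair, so too many genes are called if controls vary more, and a difference between cultures cannot be told apart from one of romidepsin. Depth was estimated from value steps with GENCODE 29 transcript lengths and is approximate.

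The genes and lists were chosen with earlier results of these data known. One further gene list is not reported here. Values in every library are given for genes at least 2-fold apart, the 10 highest and 10 lowest changes, both actins, vimentin and, to account for the rest, the other members. In GENCODE 29, 16 of the 50 have pseudogenes named for them (20 for ACTG1, 10 for ACTB and 10 for PFN1) and 22 share exonic bases with a gene on the other strand, so reads of these genes may be shared. Alternatives were a pseudocount of 0.1, no filter, a mean of at least 5 FPKM, scaling to equal library sums of named genes, quantile normalization, rows naming 1 gene, and leaving out each romidepsin library. Python 3.11.15, numpy 2.4.6, pandas 2.3.3 and matplotlib 3.10.9 were used.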

Additional observations from a re-analysis of the deposited data

How the results depend on the processing

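Of the 48 tested genes, 17 kept direction and call under each of the 6 refitted alternatives. PXN kept them under the 5 that tested it, but wherever the filter was kept its direction was set by the filter. With no filter, 16 genes were called higher and 4 lower, instead of 28 and 13, and the cause was not tested. With equal library sums 35 were higher and 6 lower, and with quantile normalization 35 and 7; calls that were higher made up 85.4% and 83.3%, against 68.3% as deposited, while over all genes they were 65.0% and 45.8%, against 45.3%. The median change of 0.30 was 0.26 with no filter, 0.30 with a mean of at least 5 FPKM (0.298), 0.55 with equal library sums (0.545), 0.55 with quantile normalization (0.555) and 0.39 with rows naming 1 gene, and 0.300 to 0.304 without either romidepsin library, where 10 and 9 genes met the 2-fold rule. The 2-fold count ranged from 6 (mean of at least 5 FPKM, 43 genes tested) to 11 (equal library sums) upward and stayed at 0 downward under each of the alternatives. Among the 10 highest, 10 lowest, actins and vimentin, CFL1 turned to 0.078 with quantile normalization. No paired analysis was possible because the control group has 1 library. With 1 control library, no spread between controls could be measured. Per 2 kb of effective length, 1 FPKM rests on about 47.4 fragments in each romidepsin library and 41.7 in the control.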
